A study of Homo sapiens with 2 samples.

Results

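Acute-phase and antimicrobial secreted proteins are represented here by 6 genes, SAA1, SAA2, LCN2, SLPI, PI3 and CST6, of the 33694 genes in the count matrix. All 6 were found by symbol. They were chosen by their measured levels in these same cells, where several stood out in the comparisons of the lines, so their levels and ratios below are a description and carry no test. The pool of single cells held 4 hashtagged populations, of which the labels name 3 lines: C1-sgEED, with a knockout of EED, C1-sgKMT2D, with a knockout of KMT2D, and C1-sgControl, which carries a control guide. Cells of hashtag 2 have no line in the labels and enter no comparison. All 3 lines derive from C1, an epithelial clone of HMLER, an established human mammary epithelial line that was immortalised and transformed with RAS, and all were grown in medium with insulin, EGF and hydrocortisone. EED is a core subunit of the repressive Polycomb complex PRC2, and KMT2D is a histone methyltransferase of enhancers. Each line is 1 sample. According to their titles both libraries hold mixed clones, with no count of clones per line, so a difference between lines cannot be told apart from a difference between clones.

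Serum amyloid A proteins, encoded by SAA1 and SAA2, are made in large amounts by the liver during the acute-phase response and in smaller amounts by epithelia under inflammatory cytokines such as IL-1 and IL-6. LCN2 encodes lipocalin-2, which binds bacterial siderophores and so withholds iron, and its transcription in epithelia is known to need NF-kB and its cofactor IκBζ, the product of NFKBIZ. SLPI and PI3 (elafin) are small inhibitors of neutrophil serine proteases with a whey acidic protein domain, and both also have antimicrobial activity. CST6 encodes cystatin M/E, an inhibitor of cysteine proteases such as cathepsin V and legumain that is found in the epidermis and in breast epithelium.

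In the C1-sgEED, C1-sgKMT2D and C1-sgControl lines 2341, 2349 and 1721 cells passed the filters, with a median of 3919, 5526 and 5672 UMIs (distinct RNA molecules) per cell. The filter removed 6.70% of C1-sgEED, 5.93% of C1-sgKMT2D and 27.2% of C1-sgControl barcodes. Cells were split by the VIM share, the UMIs of the mesenchymal gene VIM divided by those of VIM and the basal keratin KRT17 together. Cells under a share of 0.5 are called KRT17-rich and the others VIM-rich. C1-sgEED had 1218 VIM-rich and 1103 KRT17-rich cells, C1-sgKMT2D had 1166 and 1155, and C1-sgControl had 82 and 1619. VIM-rich cells were shallower than KRT17-rich cells, with a median of 3484 against 4430 UMIs in C1-sgEED and 4576.5 against 6727 UMIs in C1-sgKMT2D, and the part of depth in the results by state was tested only by thinning. Within 0.05 of the bound lay 73, 138 and 59 cells of the 3 lines. The 82 VIM-rich cells of C1-sgControl had a median VIM share of 0.57 and a median of 28.5 UMIs of the other 9 epithelial markers, against 1 UMI in VIM-rich C1-sgEED and 3 UMIs in VIM-rich C1-sgKMT2D cells, so they enter no comparison. Markers of other cell types were low in all 6 groups of line and state: the summed level was 1.17 to 6.81 CPM (counts scaled to the total UMIs of a group) for 5 neutrophil genes, at most 0.957 CPM for 6 lymphocyte genes and at most 0.736 CPM for 5 endothelial genes, 12.3 to 22.6 CPM for 7 macrophage genes, with PTPRC, LYZ and TYROBP at 0, and 25.2 to 72.6 CPM for 6 hepatocyte genes, where SERPINA1 alone reached 10 CPM and ALB, APOB and TTR were at 0. The target genes check the labels little in a 3' library: EED was at 13.3 CPM in C1-sgEED and 13.6 CPM in C1-sgControl, and KMT2D at 5.01 CPM in C1-sgKMT2D and 4.63 CPM in C1-sgControl.

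The 6 genes lie on chromosomes 9, 11 and 20 (GRCh38, GENCODE v29, all protein coding). SAA1 (ENSG00000173432, chromosome 11, 18266174 to 18269977, plus strand) and SAA2 (ENSG00000134339, 18239223 to 18248643, minus strand) are neighbours with 17.5 kb and no protein-coding gene between them. CST6 (ENSG00000175315, 66011841 to 66013505, plus strand) is on the same chromosome and far away. PI3 (ENSG00000124102, chromosome 20, 45174876 to 45176544, plus strand) and SLPI (ENSG00000124107, 45252239 to 45254564, minus strand) belong to 1 cluster, 75.7 kb apart with 2 protein-coding genes between. LCN2 (ENSG00000148346, 128149071 to 128153455, plus strand) is on chromosome 9. SAA1 and SAA2 are close copies: of the 50-base windows in the last 300 bases of their main transcripts, 9.96% occur in both genes, so a part of their reads may be split or dropped by the counting. SAA2 also shares exons with the read-through gene SAA2-SAA4 on the same strand.

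LCN2 was far lower in C1-sgKMT2D than in C1-sgControl cells, and the 250 bases before its start site are shown because inflammatory factors are known to act there. The sequence is from RefSeq (GRCh38.p14, chr9:128149203-128149452, plus strand; a transcript whose start site lies inside the GENCODE gene span), and 1 of the 6 members was matched in the promoter table. Capitals mark matches to motif letters, searched on both strands.
LCN2 promoter: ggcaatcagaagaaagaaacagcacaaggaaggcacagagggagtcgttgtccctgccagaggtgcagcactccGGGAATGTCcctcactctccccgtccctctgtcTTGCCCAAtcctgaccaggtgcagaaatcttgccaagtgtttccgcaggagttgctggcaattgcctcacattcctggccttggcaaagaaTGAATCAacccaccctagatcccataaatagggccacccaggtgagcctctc
The capitals are, in order, a match to the NF-kB-like letters GGGANTNNC (bases -176 to -168 from the start site), a match to the C/EBP-like letters TTGCNNAA (-143 to -136) and a match to the AP-1 letters TGANTCA (-52 to -46). The STAT-like letters TTCNNNGAA had no match. The same letters occur in 13.2%, 9.05%, 6.57% and 6.57% of 35116 promoter windows, so these matches are common. The NF-kB-like letters were written with this sequence in view, and none of the matches overlap.

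SAA1 was lower in both knockouts than in the control line. Over all cells it was at 88.1 CPM (82.4 to 94.0) in C1-sgEED, 147 CPM (141 to 154) in C1-sgKMT2D and 846 CPM (828 to 864) in C1-sgControl. The order was C1-sgControl, C1-sgKMT2D, C1-sgEED, with intervals that do not overlap. All intervals here are exact 95% intervals that cover counting error only. The level was 9.61-fold lower (8.97 to 10.3) in C1-sgEED than in C1-sgControl and 5.74-fold lower (5.47 to 6.02) in C1-sgKMT2D than in C1-sgControl. Free RNA in droplets is bounded by the gene with the lowest level relative to the pool of all 4 hashtags, and for SAA1 the bound was 49.1 CPM for C1-sgEED and 50.8 CPM for C1-sgKMT2D.

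The 2 knockouts differed in where SAA1 was found. In C1-sgEED, SAA1 was at 40.5 CPM (35.1 to 46.6) in VIM-rich and 130 CPM (121 to 140) in KRT17-rich cells, or 3.21-fold lower (2.74 to 3.78) in VIM-rich cells. In C1-sgKMT2D the order was the opposite, with 225 CPM (213 to 237) in VIM-rich and 87.8 CPM (81.4 to 94.6) in KRT17-rich cells, a ratio of 2.56 (2.33 to 2.81). VIM-rich C1-sgKMT2D cells therefore had 5.54 times (4.76 to 6.47) the SAA1 level of VIM-rich C1-sgEED cells, while KRT17-rich C1-sgKMT2D cells had 0.675 times (0.607 to 0.750) that of KRT17-rich C1-sgEED cells. Compared within KRT17-rich cells alone, SAA1 was 6.53-fold lower (6.05 to 7.06) in C1-sgEED and 9.68-fold lower (8.96 to 10.5) in C1-sgKMT2D than in the 850 CPM of C1-sgControl. The 40.5 CPM of VIM-rich C1-sgEED cells is close to the 31 CPM that free RNA could supply there. When the state was set by the other epithelial and mesenchymal markers in place of VIM and KRT17, the log2 ratio of SAA1 in C1-sgKMT2D was 0.82, against 1.34 with them, and no longer reached 2-fold. That split held 337 VIM-rich and 1636 KRT17-rich C1-sgKMT2D cells, against 1166 and 1155 here, so its states are not made of the same cells.

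SAA2 followed SAA1 at a lower count. It was at 5.94 CPM (4.54 to 7.63) in C1-sgEED, 27.5 CPM (24.8 to 30.4) in C1-sgKMT2D and 60.8 CPM (56.1 to 65.9) in C1-sgControl. Against C1-sgControl it was 10.2-fold lower (7.87 to 13.6) in C1-sgEED and 2.21-fold lower (1.94 to 2.52) in C1-sgKMT2D. The C1-sgKMT2D value came mostly from VIM-rich cells, at 50.3 CPM (44.8 to 56.4) against 9.81 CPM (7.76 to 12.2) in KRT17-rich cells, a ratio of 5.13 (3.99 to 6.67). VIM-rich C1-sgKMT2D cells thus came near the 61.7 CPM (56.8 to 66.9) of KRT17-rich C1-sgControl cells for SAA2, although their SAA1 level was far below it. In C1-sgEED, SAA2 was at 3.12 CPM in VIM-rich and 8.47 CPM in KRT17-rich cells, both under the 10 CPM at which a ratio is counted here, and the VIM-rich interval (1.75 to 5.14) includes the 2.89 CPM that free RNA could supply.

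The balance between the 2 SAA genes differed in C1-sgKMT2D. SAA2 made up 6.31% (4.86 to 8.04) of the SAA1 and SAA2 UMIs in C1-sgEED, 15.7% (14.3 to 17.2) in C1-sgKMT2D and 6.71% (6.20 to 7.25) in C1-sgControl. The C1-sgKMT2D share was 18.3% (16.5 to 20.3) in VIM-rich and 10.1% (8.03 to 12.4) in KRT17-rich cells. It was highest in the cells with the most SAA RNA: in VIM-rich C1-sgKMT2D cells it was 8.25% (6.19 to 10.7) in 363 cells with 1 to 4 SAA UMIs, 17.9% (13.8 to 22.8) in 47 cells with 5 to 9 and 26.8% (23.6 to 30.1) in 38 cells with 10 or more. In KRT17-rich C1-sgControl cells the same classes gave 4.99% in 693 cells, 6.32% in 390 cells and 7.66% (6.89 to 8.48) in 256 cells. SAA2 UMIs count towards the class, and their part in this gradient was not tested. The 3 highest VIM-rich C1-sgKMT2D cells held 26, 20 and 17 of the 300 SAA2 UMIs of that group. Reads that match both genes could be lost, and whether that loss differs between the lines was not tested.

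**Figure D1:**
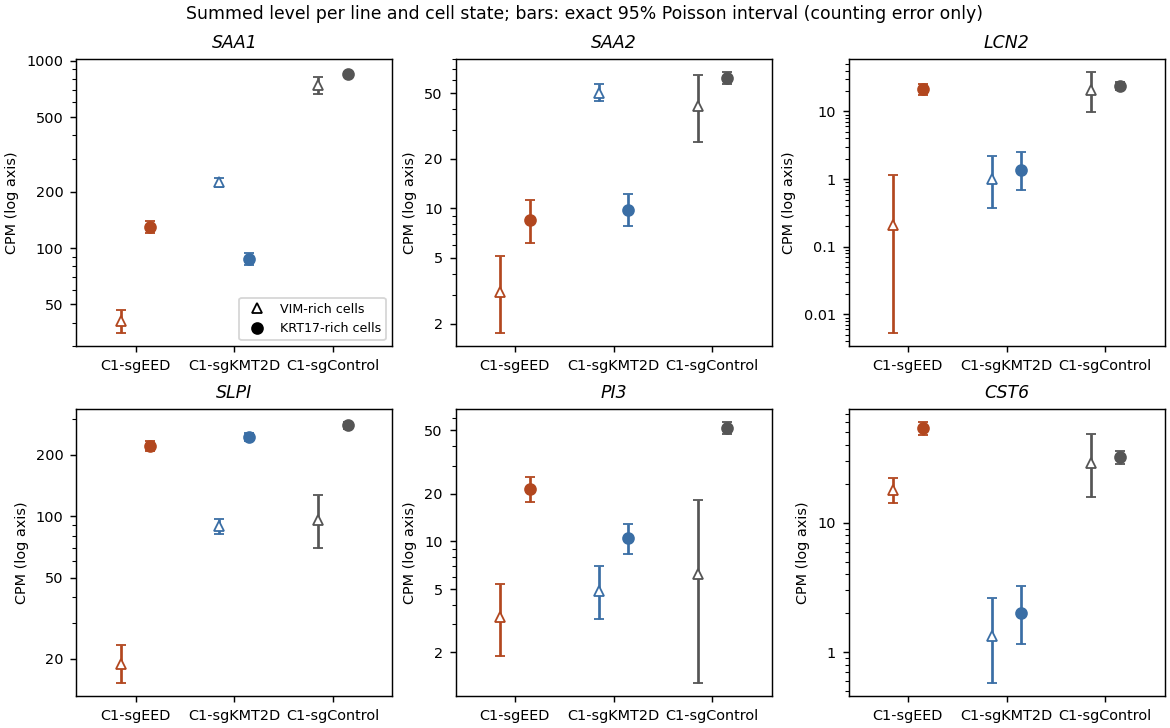
Level of each of the 6 genes in CPM (log axis) in VIM-rich (open triangles) and KRT17-rich (filled circles) cells of each line, with exact 95% Poisson intervals. In C1-sgKMT2D the triangles of SAA1 and SAA2 (225 and 50.3 CPM) lie above the circles (87.8 and 9.81 CPM), and in C1-sgEED the triangles of all 6 genes lie below the circles.

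LCN2 was low in C1-sgKMT2D cells in both states. Over all cells it was at 11.4 CPM (9.42 to 13.6) in C1-sgEED, 1.22 CPM (0.709 to 1.95, 17 UMIs) in C1-sgKMT2D and 24.2 CPM (21.2 to 27.4) in C1-sgControl. The C1-sgKMT2D level was 19.9-fold lower (12.1 to 34.7) than that of C1-sgControl. Its interval includes the free RNA limit of 1.12 CPM set over all cells. Set by state, the limit was lower, at 0.940 CPM in VIM-rich and 0.473 CPM in KRT17-rich cells. Within KRT17-rich C1-sgKMT2D cells LCN2 was at 1.38 CPM (0.691 to 2.48), above the limit of 0.473 CPM there. C1-sgEED was 2.12-fold lower (1.70 to 2.67). Nearly all LCN2 UMIs of C1-sgEED, 116 of 117, were in KRT17-rich cells, at 21.4 CPM (17.6 to 25.6) against 23.7 CPM (20.7 to 27.0) in KRT17-rich C1-sgControl cells, a ratio of 0.90 (0.713 to 1.13). That likeness rests on few cells: 2 of the 1103 KRT17-rich C1-sgEED cells held 39 and 26 UMIs, or 56.0% of the total. Without the 2 highest cells of each group the levels were 9.40 CPM in C1-sgEED and 21.0 CPM in C1-sgControl, a log2 ratio of -1.08 against -0.14 with them.

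SLPI was lower in the VIM-rich than in the KRT17-rich cells of both knockouts. In KRT17-rich cells it differed little between lines, with 220 CPM (208 to 233) in C1-sgEED, 243 CPM (232 to 254) in C1-sgKMT2D and 279 CPM (269 to 290) in C1-sgControl, a ratio to C1-sgControl of 0.789 (0.736 to 0.845) and 0.870 (0.820 to 0.923). VIM-rich C1-sgEED cells had 18.9 CPM (15.2 to 23.2) of SLPI and VIM-rich C1-sgKMT2D cells 89.2 CPM (81.8 to 97.2). VIM-rich cells were thus 11.6-fold lower (9.40 to 14.6) than KRT17-rich cells in C1-sgEED and 2.72-fold lower (2.47 to 3.00) in C1-sgKMT2D. Over all cells SLPI was at 126 CPM in C1-sgEED, 177 CPM in C1-sgKMT2D and 270 CPM in C1-sgControl, values that mix these levels with the share of VIM-rich cells in each line.

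PI3 was lower in the knockouts also within KRT17-rich cells. There it was at 21.4 CPM (17.6 to 25.6) in C1-sgEED, 10.4 CPM (8.32 to 12.9) in C1-sgKMT2D and 51.9 CPM (47.4 to 56.7) in C1-sgControl, which is 2.43-fold (1.98 to 3.00) and 4.97-fold lower (3.93 to 6.35) in the 2 knockouts. These levels rest in part on few cells. The 2 highest cells held 35.3% of the PI3 UMIs in C1-sgEED, 27.7% in C1-sgKMT2D and 16.0% in C1-sgControl. Without them the levels were 13.8, 7.56 and 43.7 CPM in the same order. VIM-rich C1-sgEED cells had 3.33 CPM of PI3 and VIM-rich C1-sgKMT2D cells 4.87 CPM, with intervals that overlap (1.90 to 5.40 and 3.26 to 6.99). PI3 was thus 6.42-fold lower (3.79 to 11.6) in VIM-rich than in KRT17-rich C1-sgEED cells and 2.15-fold lower (1.39 to 3.4) in C1-sgKMT2D, where the log2 ratio with its pseudocount was -0.96 and so short of 2-fold.

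CST6 separated the 2 knockouts. It was at 37.0 CPM (33.4 to 40.9) in C1-sgEED, 1.72 CPM (1.10 to 2.56, 24 UMIs) in C1-sgKMT2D and 32.0 CPM (28.6 to 35.8) in C1-sgControl, and the C1-sgEED and C1-sgControl intervals overlap. C1-sgKMT2D was 21.5-fold lower (14.2 to 34.0) than C1-sgEED and 18.6-fold lower (12.3 to 29.5) than C1-sgControl. Its level is under the free RNA limit of 2.83 CPM set over all cells, which is above the limits by state given below. The gap was present in both states: 1.34 CPM in VIM-rich C1-sgKMT2D cells against 17.9 CPM (14.3 to 22.1) in VIM-rich C1-sgEED cells, and 2.01 CPM in KRT17-rich C1-sgKMT2D cells against 53.9 CPM (47.9 to 60.5) in KRT17-rich C1-sgEED cells. The free RNA limit was 2.38 CPM in VIM-rich C1-sgKMT2D cells. In KRT17-rich C1-sgKMT2D cells it was 1.20 CPM, which the interval of the level there (1.15 to 3.27) includes. KRT17-rich C1-sgEED cells were above the 32.1 CPM (28.6 to 35.9) of KRT17-rich C1-sgControl cells by a ratio of 1.68 (1.43 to 1.98), which does not reach 2-fold.

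Counted together, at a level of 10 CPM in either group and a 2-fold difference of CPM with a pseudocount of 1, the members split as follows. For C1-sgEED over C1-sgControl in all cells, 5 of 6 members were lower and none higher, where 2.52% and 3.96% of 7899 genes were lower and higher. For C1-sgKMT2D over C1-sgControl 5 of 6 were lower and none higher, against 4.96% and 1.86% of 7678 genes. CST6 was the exception in C1-sgEED and SLPI in C1-sgKMT2D. Between the knockouts, C1-sgKMT2D over C1-sgEED, 2 of 6 (LCN2 and CST6) were lower and 1 (SAA2) higher, against 4.93% and 0.775% of 7743 genes. As the members were chosen for such differences, nothing is read from these shares. Both knockouts share the C1-sgControl cells, so the lines' ratios to it are not independent.

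Within KRT17-rich cells, 3 of 6 members (SAA1, SAA2 and PI3) were lower in C1-sgEED than in C1-sgControl and none higher, against 0.975% and 2.22% of 7795 genes. In C1-sgKMT2D 5 of 6 were lower than in C1-sgControl and none higher, against 4.58% and 1.04% of 7614 genes, with SLPI again the exception. For KRT17-rich C1-sgKMT2D over KRT17-rich C1-sgEED cells, 2 of 5 (LCN2 and CST6) were lower and none higher, against 4.81% and 0.442% of 7690 genes.

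Between the states of a line the 2 knockouts differed more. In C1-sgEED all 5 counted members were lower in VIM-rich than in KRT17-rich cells and none higher, against 6.89% and 4.70% of 8026 genes. In C1-sgKMT2D 1 of 4 (SLPI) was lower and 2 (SAA1 and SAA2) were higher in VIM-rich cells, against 3.09% and 2.80% of 7466 genes. For VIM-rich C1-sgKMT2D over VIM-rich C1-sgEED cells, 1 of 4 (CST6) was lower and 3 (SAA1, SAA2 and SLPI) were higher, against 7.0% and 2.76% of 7767 genes. The median log2 ratio over all genes was -0.10 for C1-sgKMT2D over C1-sgEED in all cells and -0.12 in VIM-rich cells, and within 0.1 of 0 in the other 7 comparisons, so the scale moves these ratios little.

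**Figure D2:**
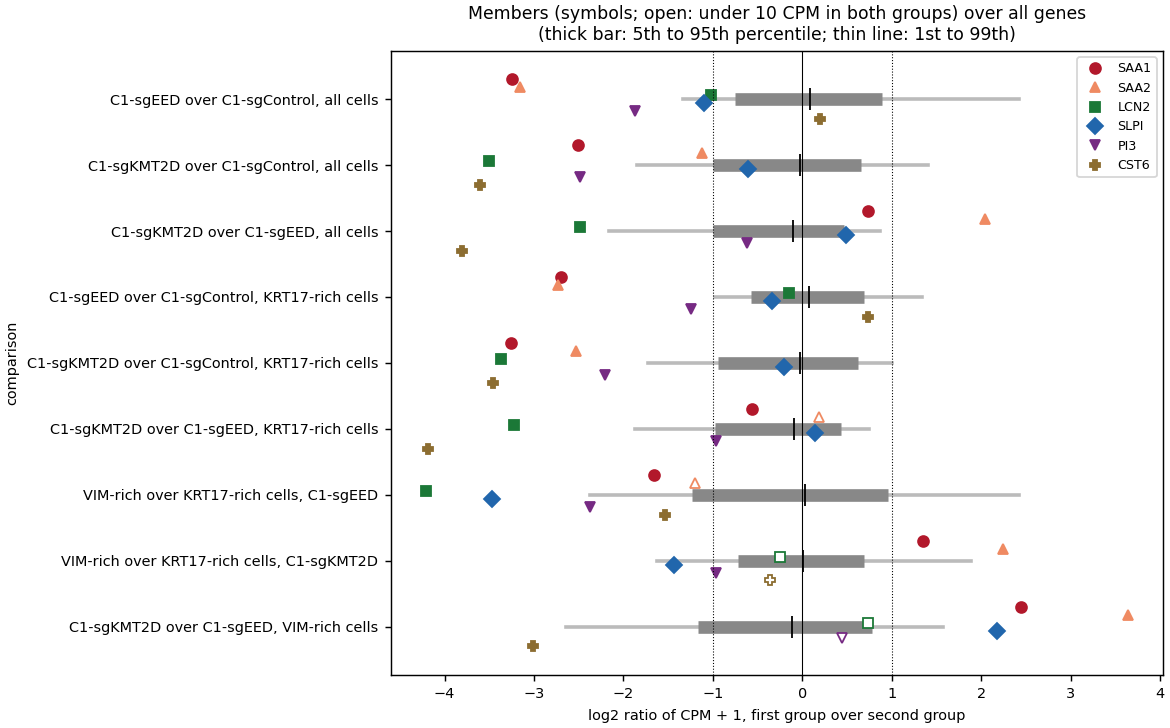
Log2 ratio of each member (coloured symbols, open where both groups are under 10 CPM) in the 9 comparisons, each written as first group over second group, over the spread of all genes of at least 10 CPM (thick bar 5th to 95th percentile, thin line 1st to 99th, tick median). SAA1 and SAA2 lie left of the thick bar for both knockouts over C1-sgControl, in all and in KRT17-rich cells, and right of it for VIM-rich over KRT17-rich C1-sgKMT2D cells (1.34 and 2.25).

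Along 5 equal ranges of the VIM share the members took different courses. In C1-sgKMT2D, SAA1 was at 86.2, 88.1, 117, 215 and 251 CPM from the lowest to the highest range and SAA2 at 8.01, 11.5, 26.5, 34.6 and 57.8 CPM, while SLPI went the other way, at 347, 172, 155, 121 and 68.1 CPM. In C1-sgKMT2D, SAA1 was thus alike in the first 2 ranges (intervals 76.2 to 97.2 and 78.9 to 98.2) and increased from the third on. SAA2 was higher in each range than in the one before. Its intervals overlap between the first 2 ranges and between the next 2, at 26.5 and 34.6 CPM. The SAA1 intervals of the last 2 ranges overlap as well. In C1-sgEED, SAA1 stayed near its level over the first 3 ranges (139, 114 and 137 CPM) and was at 84.7 and 21.5 CPM in the last 2. SLPI in C1-sgEED was at 296, 99.1, 85.3, 39.3 and 9.84 CPM. In C1-sgControl, SAA1 was at 856, 812, 924 and 588 CPM in the first 4 ranges, the fourth with 30 cells, and the last range held only 3 cells. PI3 was highest in the lowest range of every line, at 32.2 CPM in C1-sgEED, 17.9 CPM in C1-sgKMT2D and 73.6 CPM in C1-sgControl, and between 2.92 and 12.3 CPM in all later ranges of at least 20 cells. LCN2 of C1-sgEED was at 33.1 CPM in the lowest range and at 2.95 CPM or less in the others.

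**Figure D3:**
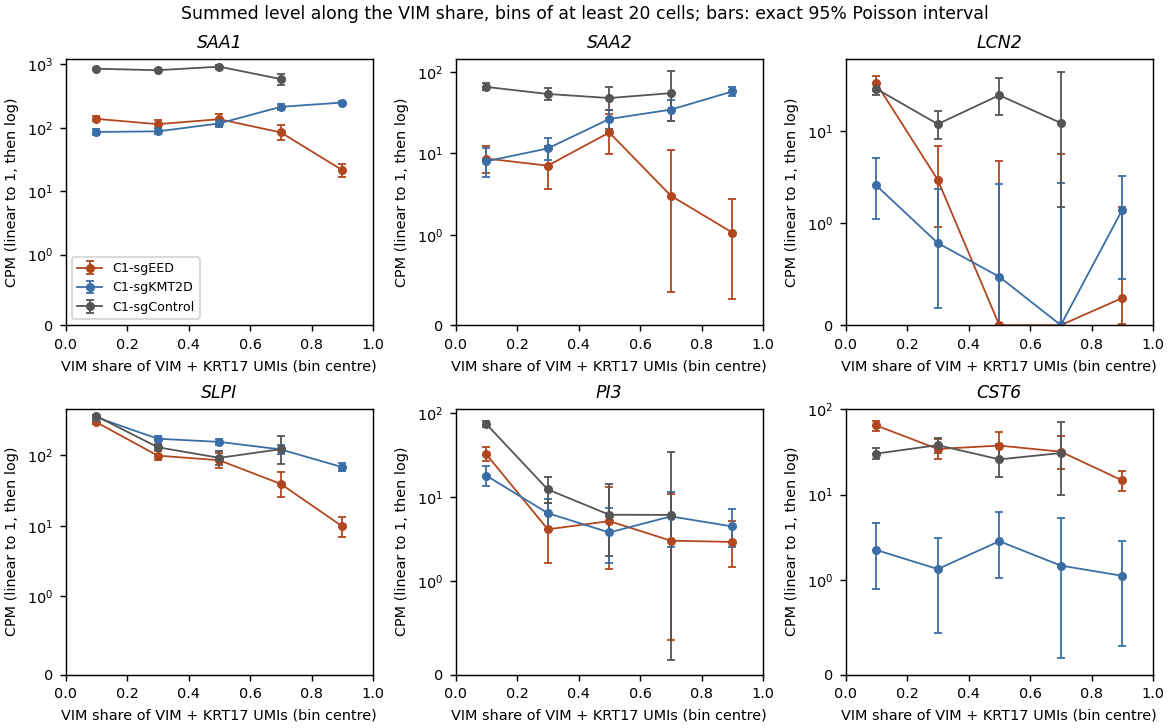
Level of each gene in CPM (axis linear to 1, then logarithmic) against the VIM share in 5 ranges, for each line, with exact 95% Poisson intervals, and ranges under 20 cells left out. SAA1 and SAA2 increase with the VIM share in C1-sgKMT2D, to 251 and 57.8 CPM, and are at 21.5 and 1.06 CPM in the last range of C1-sgEED.

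The spread over cells was compared after every cell of at least 2000 UMIs was thinned to 2000, which left out 167 C1-sgEED, 114 C1-sgKMT2D and 85 C1-sgControl cells. A SAA1 UMI was found in 6.04% (4.71 to 7.60) of VIM-rich and 18.4% (16.1 to 20.8) of KRT17-rich C1-sgEED cells, in 22.4% of VIM-rich and 12.2% (10.3 to 14.3) of KRT17-rich C1-sgKMT2D cells, and in 65.4% (63.0 to 67.8) of KRT17-rich C1-sgControl cells. At full depth the same shares were 10.2%, 34.5%, 37.0%, 28.6% and 82.2%. Most KRT17-rich control cells thus gave a SAA1 UMI, and most knockout cells gave none at either depth. At full depth 50% of all SAA1 UMIs were in 58 cells, 4.97% of the VIM-rich C1-sgKMT2D cells, and in 247 cells, 15.3% of the KRT17-rich C1-sgControl cells, shares that also depend on the level. No cell type known to lack these genes was in the pool, so shares near the free RNA limit are not read as expression. Such shares are those of LCN2 in VIM-rich and of CST6 in both states of C1-sgKMT2D. Those of SAA2 and LCN2 in VIM-rich C1-sgEED cells belong here too. SAA1 in VIM-rich C1-sgEED cells was above its limit but close to it, as given above, so a part of its share there may be free RNA. LCN2 in KRT17-rich C1-sgKMT2D cells was above its limit, as given above, but from 11 UMIs.

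SAA2 was detected in 5.14% (3.91 to 6.60) of VIM-rich and 1.43% (0.822 to 2.32) of KRT17-rich C1-sgKMT2D cells and in 9.98% (8.53 to 11.6) of KRT17-rich C1-sgControl cells. In the first of these groups 15 of 1166 cells held 50% of its UMIs, and the highest cell held 26. SLPI was found in 23.9% (21.4 to 26.6), 29.8% (27.1 to 32.6) and 29% (26.7 to 31.3) of the KRT17-rich cells of C1-sgEED, C1-sgKMT2D and C1-sgControl, shares whose last 2 intervals overlap. LCN2 was found in 1.51% (0.868 to 2.45) of KRT17-rich C1-sgEED cells, against 3.86% (2.96 to 4.95) of KRT17-rich C1-sgControl cells, and without the 2 highest cells of each group its summed level was lower in C1-sgEED as well, as given above. No LCN2 UMI was found in 1110 thinned VIM-rich C1-sgEED cells, which allows a share of cells with a UMI of up to 0.332% (Clopper-Pearson). PI3 was found in 2.46%, 1.17% and 5.47% of the KRT17-rich cells of C1-sgEED, C1-sgKMT2D and C1-sgControl, and CST6 in 9.56%, 0.538% and 5.67%. At full depth, in the same order of lines, the shares in KRT17-rich cells were 3.72%, 3.90% and 22.4% for SAA2, 43.6%, 58.4% and 53.9% for SLPI, 2.72%, 0.952% and 7.35% for LCN2, 4.71%, 4.07% and 11.4% for PI3 and 18.0%, 1.39% and 13.4% for CST6.

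The Fano factor, the variance of the UMIs per thinned cell over their mean, is close to 1 where cells differ only by counting, and its median was 1.02 over 7277 genes with a mean of at least 0.02 in KRT17-rich C1-sgControl cells. There it was 2.6 for SAA1, 1.39 for SAA2, 2.83 for LCN2, 4.69 for SLPI, 3.85 for PI3 and 1.05 for CST6. At this depth CST6 had more spread than 72.0% of those genes, and the other 5 had more than at least 97.7% of them. Those genes were not matched to the members by their mean, which ran from 0.0567 UMIs for LCN2 to 1.68 UMIs for SAA1. The values differed at another depth: in the 991 of these cells with at least 5000 UMIs, thinned to 5000, it was 4.85 for SAA1, 1.75 for SAA2, 3.14 for LCN2, 7.99 for SLPI, 9.68 for PI3 and 1.61 for CST6. In KRT17-rich C1-sgEED cells LCN2 reached 9.44 and SLPI 6.40, and in VIM-rich C1-sgKMT2D cells SAA1 and SAA2 reached 3.77 and 4.41.

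**Figure D4:**
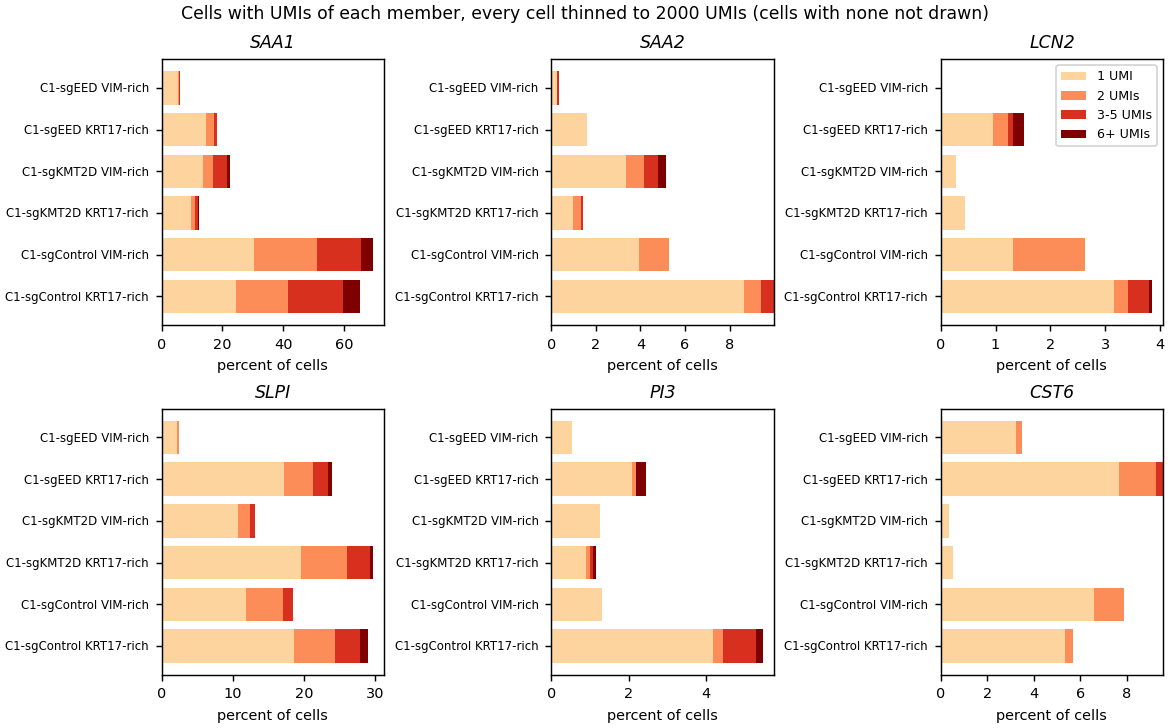
Percent of cells with 1, 2, 3 to 5, or 6 or more UMIs of each gene (shades), after thinning to 2000 UMIs, for VIM-rich and KRT17-rich cells of each line. SAA1 reaches 65.4% of KRT17-rich C1-sgControl cells, against 22.4% of VIM-rich C1-sgKMT2D and 18.4% of KRT17-rich C1-sgEED cells.

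Within KRT17-rich C1-sgControl cells a few of the members varied together. SLPI and PI3, the neighbouring protease inhibitors, had a Pearson r, on the log of 1 plus the thinned count, of 0.35 over 1553 cells, and SAA1 and SAA2 one of 0.25. LCN2 went with PI3 (0.23), CST6 (0.15) and SLPI (0.13) more than with SAA1 (0.04). PI3 and SAA1 had an r of -0.04, the only negative one of the 15 pairs. The cells share 1 library and equal depth, the counts are sparse, and only the pairs SLPI with PI3, SAA1 with SAA2 and LCN2 with PI3 exceed 0.2.

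Read as levels, the 60 KRT17-rich C1-sgControl cells with an LCN2 UMI had 417 CPM of PI3 against 33.5 CPM in the 1493 cells without one, a ratio of 12.4 (8.68 to 17.6), and 1075 CPM of SLPI against 246 CPM, a ratio of 4.37 (3.59 to 5.27). Their SAA1 level was 1142 CPM against 827 CPM. Of these 60 cells 14 had a PI3 UMI and 22 an SLPI UMI, so the PI3 and SLPI ratios rest on few cells. In the 1016 cells with a SAA1 UMI, SAA2 was at 80.7 CPM against 22.3 CPM in the 537 cells without. PI3 was at 35.9 CPM against 71.7 CPM in the same order, a ratio of 0.501 (0.359 to 0.699). Only 85 of all these cells had a PI3 UMI, 49 of them with SAA1, so the PI3 ratio rests on few cells as well. In VIM-rich C1-sgKMT2D cells SAA1 and SAA2 had an r of 0.50, with a UMI of both in 45 of the 57 cells that had SAA2. The 249 of these cells with SAA1 had 205 CPM of SAA2 against 6.97 CPM in the 861 without, a ratio of 29.4 (16.1 to 58.7), and VIM levels of 4570 and 4845 CPM.

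Genes most like each member over those 1553 cells were sought among 4130 genes found in at least 5% of them and named at an r of at least 0.2. For SLPI they were the stress keratin KRT16 (0.40), PI3 (0.35) and KRT6B (0.33), and for PI3 they were SLPI (0.35), KRT16 (0.35) and KRT6B (0.31). SAA1 and SAA2 had only each other (0.25), CST6 had none, and LCN2, found in 3.86% of the cells, was below the limit.

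**Figure D5:**
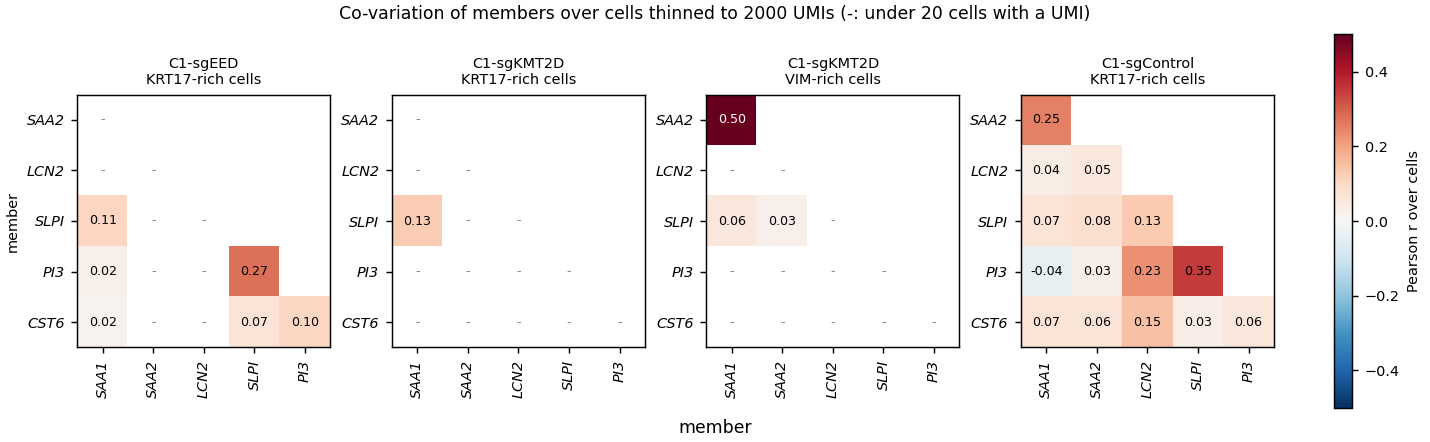
Pearson r between members over cells thinned to 2000 UMIs, in KRT17-rich C1-sgEED, KRT17-rich C1-sgKMT2D, VIM-rich C1-sgKMT2D and KRT17-rich C1-sgControl cells, with a dash where either gene was found in under 20 cells. SAA1 with SAA2 reaches 0.50 in VIM-rich C1-sgKMT2D cells, and SLPI with PI3 reaches 0.27 in KRT17-rich C1-sgEED and 0.35 in KRT17-rich C1-sgControl cells.

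Among the inducers of these genes, 20 cytokines and cytokine receptors were listed. In KRT17-rich cells 9 of them were at 10 CPM or more. Of these, 2 were at least 2-fold lower and none higher in C1-sgEED than in C1-sgControl, and 5 were lower and none higher in C1-sgKMT2D than in C1-sgControl, where 0.975% and 4.58% of all counted genes were lower. LTB, which encodes lymphotoxin beta, a TNF family ligand, was at 43.6 CPM in C1-sgEED, 15.5 CPM in C1-sgKMT2D and 194 CPM in C1-sgControl. IL1B, which encodes interleukin-1 beta, was at 50.8 CPM in C1-sgEED, 25.9 CPM in C1-sgKMT2D and 164 CPM in C1-sgControl. The list's median log2 ratio to C1-sgControl was -0.49 for C1-sgEED (0.07 over all genes) and -1.04 for C1-sgKMT2D (-0.02 over all genes). Over all cells 3 of 10 were lower and 1 (IL1R1) higher in C1-sgEED than in C1-sgControl, against 2.52% and 3.96% of all counted genes. In C1-sgKMT2D 3 of 11 were lower and 2 (IL6 and IL1R1) higher, against 4.96% and 1.86%. Whether the levels of these inducers bear on those of the members was not tested.

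In VIM-rich cells IL6, which encodes a main inducer of the acute-phase response, was at 30.9 CPM in C1-sgKMT2D and 2.08 CPM in C1-sgEED, 14.8 times as high (7.89 to 31.5), and IL1B was at 36.4 CPM in C1-sgKMT2D and 11.6 CPM in C1-sgEED. These were the 2 of 10 listed cytokines and receptors that were at least 2-fold higher there, where 2.76% of all counted genes were higher, and none was lower. Within C1-sgKMT2D, IL6 was at 30.9 CPM in VIM-rich and 4.40 CPM in KRT17-rich cells, and the receptors IL1R1 and IL6ST were higher in VIM-rich cells as well (29 against 7.17 CPM and 30.9 against 14.7 CPM), while IL1A and LTB were lower.

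Of 21 listed transcription factors and regulators, 20 of them in the matrix, 16 were counted for VIM-rich C1-sgKMT2D over VIM-rich C1-sgEED cells, and 5 were at least 2-fold higher with none lower, where 2.76% of all counted genes were higher. NFKBIZ, the NF-kB cofactor named above, was at 96.8 CPM in C1-sgKMT2D and 27.2 CPM in C1-sgEED, NFKBIA, the NF-kB inhibitor that NF-kB induces, at 359 and 124 CPM, and CEBPD, a C/EBP factor of the acute-phase response, at 387 and 134 CPM. The list's median was 0.55 against -0.12 over all genes. In KRT17-rich cells 1 of 18 was lower in C1-sgKMT2D than in C1-sgControl (4.58% of all counted genes), the epithelial factor EHF, at 0.755 CPM in C1-sgKMT2D and 11.9 CPM in C1-sgControl, and none of 18 passed 2-fold in C1-sgEED. Over all cells 3 of 18 were lower and 1 (CEBPD) higher in C1-sgKMT2D than in C1-sgControl, against 4.96% and 1.86% of all counted genes. In C1-sgEED 4 of 18 were lower and 0 higher, against 2.52% and 3.96%.

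Other acute-phase genes were mostly low: 2 or 3 of 22 reached 10 CPM, depending on the comparison. Over all cells C3, the central complement component, was at 12.7 CPM in C1-sgEED, 14.5 CPM in C1-sgKMT2D and 44.3 CPM in C1-sgControl. PTX3, a pentraxin that recognises microbes, was at least 2-fold higher in both knockouts over all cells, at 358 CPM in C1-sgEED, 40.7 CPM in C1-sgKMT2D and 4.73 CPM in C1-sgControl. In VIM-rich cells C3 was at 20.8 CPM in C1-sgKMT2D and 2.91 CPM in C1-sgEED, 7.15 times as high (4.10 to 13.5). Between the knockouts PTX3 went the other way, at 88.2 CPM in VIM-rich C1-sgKMT2D and 754 CPM in VIM-rich C1-sgEED cells. The protease inhibitor SERPINA1 was at 70.5 CPM in C1-sgKMT2D and 24.9 CPM in C1-sgEED in VIM-rich cells.

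Of 25 listed antimicrobial genes 5 to 8 were counted, depending on the comparison. In C1-sgEED 5 of 8 were lower in VIM-rich than in KRT17-rich cells, led by S100A7 (0 against 20.6 CPM), S100A8 (9.98 against 120 CPM) and S100A9 (31.4 against 336 CPM), and none was higher, where 6.89% of all counted genes were lower. In C1-sgKMT2D none of 5 was lower in VIM-rich cells, and 2 were higher, the vasodilator peptide gene ADM (39.8 against 8.68 CPM) and the chemokine gene CCL20 (40.4 against 10.3 CPM), where 2.80% of all counted genes were higher. S100A8 and S100A9, subunits of calprotectin, were both 10.6 times as high in VIM-rich C1-sgKMT2D as in VIM-rich C1-sgEED cells. In KRT17-rich C1-sgKMT2D cells 4 of 7 were lower than in C1-sgControl, where 4.58% of all counted genes were lower, among them RNASE7 (3.15 against 13.8 CPM) and CXCL14 (4.40 against 12.9 CPM). Of 18 other whey acidic protein domain genes in the matrix, WFDC2 alone was counted, at 113 CPM in KRT17-rich C1-sgEED, 34.3 CPM in KRT17-rich C1-sgKMT2D and 88.9 CPM in KRT17-rich C1-sgControl cells.

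For the enzymes and kin of the inhibitors, 3 of 11 cystatins were counted, and CSTA, a cystatin of cornifying epithelia, was at 162 CPM in C1-sgEED, 138 CPM in C1-sgKMT2D and 394 CPM in C1-sgControl over all cells, at least 2-fold lower in both knockouts. Within KRT17-rich cells CSTA was at 254 CPM in C1-sgEED, 193 CPM in C1-sgKMT2D and 401 CPM in C1-sgControl, and C1-sgKMT2D alone was at least 2-fold lower. Of 11 listed proteases and transglutaminases 6 were counted. MMP9, a gelatinase whose protein lipocalin-2 binds, was at 51.7 CPM in C1-sgEED, 9.17 CPM in C1-sgKMT2D and 119 CPM in C1-sgControl over all cells. Within KRT17-rich cells MMP9 was at 84.1 CPM in C1-sgEED, 13.2 CPM in C1-sgKMT2D and 121 CPM in C1-sgControl, and again C1-sgKMT2D alone was at least 2-fold lower. CTSV, which encodes the cathepsin V that cystatin M/E inhibits, was at 74.6 CPM in KRT17-rich C1-sgKMT2D and 161 CPM in KRT17-rich C1-sgEED cells. Of 13 listed receptors 1 or 2 were counted and none reached 2-fold in any of the 9 comparisons.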

How the data were processed

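Single cells with 4 hashtags, 3 of them given to lines by the labels, were read in 1 pooled gene expression library, made with the 10x Chromium 3' kit V2 per the labels' protocols. The authors deposited raw UMI counts per gene and barcode from Cell Ranger 3.0.2 on GRCh38, per the file header and the submitters' processing notes. Their gene annotation version is not given in the sources used. No other normalization was applied by the authors.

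Of 10336 barcodes, 9193 had at least 500 genes and at most 20% mitochondrial UMIs. Each hashtag was called by a Gaussian mixture of 2 components on log10 counts. The 820 barcodes (8.92%) with several hashtags were removed as doublets and 27 had none; doublets within a line remain. Hashtag 2 has no line in the labels and enters no comparison. UMIs were summed per line and state and scaled to CPM. A state needed at least 5 UMIs of VIM and KRT17. The line totals were 9928063 to 13963548 UMIs. Each line is 1 sample, so there is no replicate and no test; intervals (exact Poisson, Clopper-Pearson and conditional binomial, 95%) cover counting error only. Free RNA was bounded by the upper limit of the gene that was lowest relative to the pool of cells of all 4 hashtags, among genes with at least 100 UMIs at pool level. The members and gene lists were chosen with earlier results of these data known. Named companion genes are among the 3 highest or 3 lowest of their list past 2-fold. Alternatives in scale, filter, hashtag call, depth, minimum level, pseudocount and state were tried. Counting was checked on counts with known changes. Python 3.11.15, numpy 2.4.6, scipy 1.17.1, pandas 2.3.3 and scikit-learn 1.9.0 were used.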

Additional observations from a re-analysis of the deposited data

Results flagged for a closer look

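SAA1 and SAA2 ran in opposite directions between the states of the 2 knockouts. The log2 ratio of VIM-rich over KRT17-rich cells was 1.34 in C1-sgKMT2D and -1.66 in C1-sgEED for SAA1, and 2.25 in C1-sgKMT2D and -1.20 in C1-sgEED for SAA2. The difference was not tested, since each line is 1 sample. SAA2 was under 10 CPM in both states of C1-sgEED.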

How the results depend on the processing

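Of 35 member ratios past 2-fold, 30 stayed past it under every alternative run, and 441 of 450 alternatives kept the direction and the 2-fold; none of the 450 changed sign. The exceptions, as log2 ranges, were LCN2 (-2.22 to -0.83) for C1-sgEED over C1-sgControl, SAA2 (-2.22 to -0.86) for C1-sgKMT2D over C1-sgControl and LCN2 (-2.63 to -0.68) for C1-sgKMT2D over C1-sgEED, all in all cells, CST6 (-1.85 to -0.90) for VIM-rich over KRT17-rich C1-sgEED cells and SAA1 (0.82 to 1.48) for the same in C1-sgKMT2D. The cause was not tested. With cells thinned to 5000 in place of 2000 UMIs, 21 of 38 Fano factors moved by more than 20%.

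With a minimum of 50 CPM, which counts fewer members, the lower members numbered 3 for C1-sgEED and 2 for C1-sgKMT2D over C1-sgControl, 0 (and 0 higher) for C1-sgKMT2D over C1-sgEED, 3 and 1 for KRT17-rich C1-sgKMT2D over C1-sgControl and over C1-sgEED, 3 between the states of C1-sgEED and 0 for VIM-rich C1-sgKMT2D over C1-sgEED. Without the 5% of cells highest in the members, C1-sgKMT2D over C1-sgEED had 1 lower and 0 higher in all cells and 1 lower in KRT17-rich cells, and the states of C1-sgEED had 3 lower. Without the 2 highest cells per member, chosen after seeing the data, 1 was lower for C1-sgKMT2D over C1-sgEED in all and in KRT17-rich cells. For C1-sgKMT2D over C1-sgEED in all cells, 2 were higher by the mean of per-cell CPM and by thinned cells, and 0 with SAA1 and SAA2 summed. Between the states of C1-sgKMT2D, 2 were lower by the mean of per-cell CPM and with states under 0.33 and over 0.67, and 1 was higher with the SAA genes summed and with the state set by the other markers. No paired analysis was possible because each line is 1 sample.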

Other observations

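Cells of hashtag 2, which the labels give to no line, numbered 1935, with 1339 VIM-rich and 575 KRT17-rich cells. Their SAA1 level was 659 CPM (641 to 678) in VIM-rich and 337 CPM (319 to 356) in KRT17-rich cells, and along the 5 ranges of the VIM share it was 341, 292, 449, 534 and 772 CPM. SAA2 was at 65.7 CPM (60.0 to 71.8) in VIM-rich and 26.9 CPM (22.0 to 32.6) in KRT17-rich cells, and made up 8.71% (8.05 to 9.41) of the SAA1 and SAA2 UMIs. SLPI was at 38.9 CPM in VIM-rich and 83.1 CPM in KRT17-rich cells, PI3 at 14.4 and 27.7 CPM, and CST6 at 14.6 and 37.2 CPM in the same order. LCN2 was at 0.973 CPM (0.486 to 1.74) over all of these cells, from 11 UMIs. These values belong to 1 sample of unknown identity and were compared with no line.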
